A study of Saccharomyces cerevisiae with 4 samples.

Results

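The genes described here encode the heat shock chaperones of the cytosol and of mitochondria in Saccharomyces cerevisiae. They were chosen by function and systematic name: Hsp90 and its co-chaperones, the cytosolic Hsp70s with their exchange factors and J proteins, the disaggregase HSP104, small heat shock proteins, the sorting factors BTN2 and CUR1, and the mitochondrial matrix chaperones. There are 34 such genes among 6207 in the deposited table. Every one of the 34 has a row, 25 have a value on all 4 arrays, 1 on 3 arrays, 4 on 2 arrays and 1 on 1 array, and 3 are blank throughout. A blank says nothing about expression, because the rule that left cells empty is not given in the sources used here.

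Both groups were a mid2 mutant in the BY4741 background, grown at 24 °C in the rich medium YEPD. Mid2 is a plasma membrane protein that senses wall damage and signals through Pkc1 and the kinase Slt2. One part of each culture received caspofungin, an echinocandin drug that inhibits beta-1,3-glucan synthase, at 15 ng/ml for 2 h, and the other part went on growing without it. No parental strain was compared, so the values describe this mutant alone. RNA from 2 cultures was hybridised to 4 two-colour DNA arrays, with caspofungin RNA in Cy3 on arrays 1 and 3 and in Cy5 on arrays 2 and 4. These are called the Cy3 arrays and the Cy5 arrays below, after the dye of the caspofungin RNA.

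Hsp70 proteins bind unfolded stretches of other proteins, J proteins bring clients to them and stimulate their ATPase, and exchange factors release the bound nucleotide. Clients such as kinases are passed to Hsp90 through co-chaperones, aggregated proteins are pulled apart by Hsp104 with Hsp70, and small heat shock proteins hold aggregates in an accessible form. In yeast most of these genes are driven by the transcription factor Hsf1, several of them also by the general stress factors Msn2 and Msn4, while the ribosome-bound Hsp70 genes are known to follow the genes of ribosomal proteins.

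The deposited unit was a log2 ratio, where 1 means a 2-fold difference. Neither the labels nor the values state which condition is on top. A positive ratio is likely to mean more transcript with caspofungin, on the basis that the samples are titled by the treated condition. The values below are given as deposited, and the reading in which the ratios follow the dyes instead is given after them. Arrays 1 to 4 held values for 3215, 4346, 3228 and 3538 genes, and 2925 genes had all 4. Their median log2 ratio was -0.10, -0.06, -0.22 and -0.07 on arrays 1 to 4, and their SD was 0.50, 0.41, 0.64 and 0.43. MID2 was blank on all 4 arrays. Of the mating type markers, 5 of 5 a-cell genes and 0 of 4 alpha-cell genes had 4 values, while 2 of those 4 had a value on at least 1 array. One gene in the table, HSP12, passed the test used here (limma, adjusted p = 0.0196), with a mean log2 ratio of 3.90 ± 0.67 (SD, n = 4 arrays).

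None of the 25 chaperone genes with 4 values passed that test (0 genes, limma on culture means, lowest adjusted p = 0.163), beside 0.0342% of all genes tested. At an unadjusted p under 0.05 there were 2 chaperone genes, HSP26 and STI1, both with positive means, beside 6.84% of all genes with a positive and 18.5% with a negative mean. The mean log2 ratios ran from -0.24 to 0.54 with a median of 0.03, against -0.13 over all genes. Positive means were found for 15 of the 25 genes, beside 27% of all genes, and for 19 with arrays centred, beside 46.2%. With arrays scaled the count was 11, beside 26.8%. Without array 1 the count was 7, beside 26.1%, and without array 3 it was 10, beside 31.6%. The 95% intervals of all 25 lay within a 2-fold difference in either direction, with -0.52 the lowest and 0.84 the highest bound, and the interval of 94.6% of all genes did so too. No chaperone gene was at least 2-fold different with 1 sign on every array (0 genes), beside 0.479% of all genes. The chaperone median lay 0.16 above that of all genes, and that distance was 0.05 without array 1, 0.26 without array 2, 0.08 without array 3 and 0.22 without array 4.

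**Figure D1:**
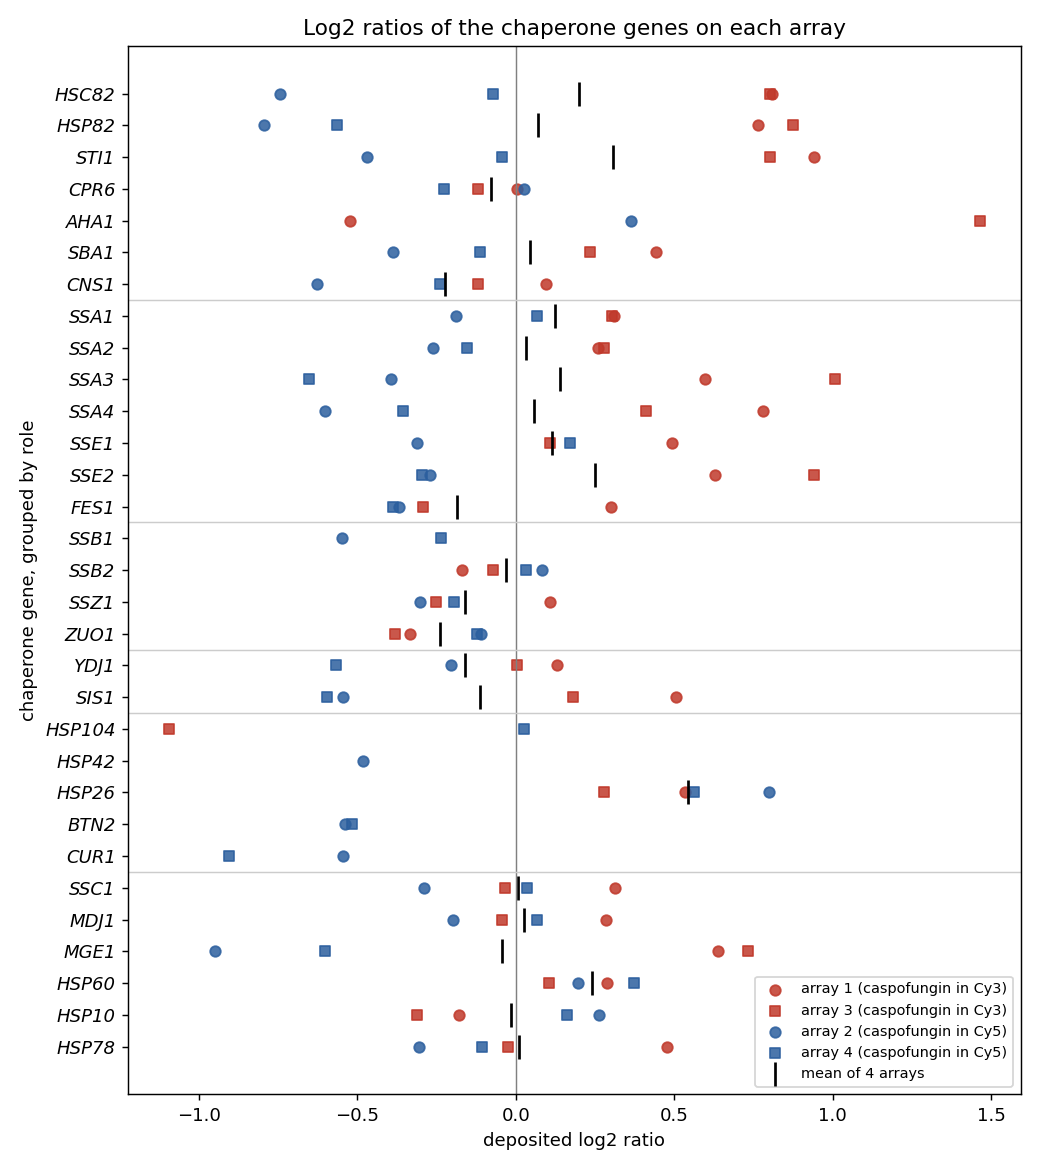
Deposited log2 ratio (horizontal axis) of the 31 chaperone genes with at least 1 value, grouped by role from Hsp90 at the top to mitochondria at the bottom. Red points are arrays with caspofungin in Cy3, blue points arrays with caspofungin in Cy5, and black bars the mean of 4 arrays. For 15 genes both red points lie to the right of both blue points, while HSP26 and HSP60 have all 4 points to the right of 0.

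Most of these genes, 19 of 25, had ratios that did not overlap between dye orientations, as did 68.8% of all genes. HSP82, the heat-inducible Hsp90 (YPL240C), read 0.77 on array 1, -0.79 on array 2, 0.87 on array 3 and -0.56 on array 4. HSC82, the constitutive Hsp90 (YMR186W), read 0.81, -0.74, 0.80 and -0.07 on arrays 1 to 4. In both genes the ratios of arrays 1 and 3 were well above those of arrays 2 and 4, with no overlap, and the means of 0.07 ± 0.87 and 0.20 ± 0.75 (log2, SD, n = 4) were small beside that spread. The pair differed by at most 0.49 on any array. These paralogues are near-identical, and how far their spots share signal was not tested.

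Among the co-chaperones, STI1, which links Hsp70 to Hsp90 (YOR027W), had the highest mean. Its ratios were 0.94, -0.47, 0.80 and -0.04 on arrays 1 to 4, a mean of 0.31 ± 0.68 (log2, SD, n = 4 arrays) with a 95% interval from 0.02 to 0.59 (limma, adjusted p = 0.188). Array 2 and array 4 were negative and the other arrays positive. SBA1, the yeast p23 protein, which binds the ATP-bound form of Hsp90, showed the same order with smaller values, 0.44, -0.39, 0.23 and -0.11. CNS1, a tetratricopeptide co-chaperone, had a mean of -0.22 ± 0.30, and CPR6, a cyclophilin that binds Hsp90, stayed between -0.23 and 0.03 on all 4 arrays. AHA1, the activator of the Hsp90 ATPase, had 3 values that disagreed with each other, -0.52 on array 1, 0.36 on array 2 and 1.46 on array 3 (adjusted p = 0.737 when limma also took genes with 3 values). The kinase co-chaperone gene CDC37 and the cyclophilin gene CPR7 were blank.

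The cytosolic Hsp70 genes were measured on all arrays. SSA1 (YAL005C) and SSA2 (YLL024C), which encode the abundant Hsp70s of growing cells, had the smallest range of that group. SSA1 read 0.31, -0.19, 0.30 and 0.07 on arrays 1 to 4, and SSA2 read 0.26, -0.26, 0.28 and -0.15. The 2 genes never differed by more than 0.22, and they too are near-identical copies whose signals may mix. The stress-inducible Hsp70 genes were spread more widely. SSA3 (YBL075C) read 0.60 on array 1, -0.39 on array 2, 1.01 on array 3 and -0.65 on array 4. SSA4 (YER103W) read 0.78, -0.60, 0.41 and -0.36 on arrays 1 to 4. Their means, 0.14 ± 0.79 and 0.06 ± 0.65 (log2, SD, n = 4), were again close to 0, and in both genes the Cy3 arrays lay above the Cy5 arrays without overlap.

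Of the exchange factors, SSE2, an Hsp110 of stressed cells (YBR169C), read 0.63, -0.27, 0.94 and -0.29 on arrays 1 to 4, with a mean of 0.25 ± 0.63 (limma, adjusted p = 0.203). Its paralogue SSE1, the main Hsp110, read 0.49, -0.31, 0.11 and 0.17, so that the orientations overlapped and the pair differed by up to 0.84. FES1, a nucleotide exchange factor of the cytosol, was positive on array 1 (0.30) and between -0.39 and -0.29 on the other arrays.

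The chaperones that sit on the ribosome had small ratios. ZUO1, the J protein of the ribosome-associated complex (YGR285C), was the 1 chaperone gene with negative ratios on all 4 arrays, beside 19.3% of all genes. It read -0.33, -0.11, -0.38 and -0.12 on arrays 1 to 4, a mean of -0.24 ± 0.14 (SD, n = 4), and did not pass (limma, adjusted p = 0.201). With array 1 left out, 5 chaperone genes were negative on the remaining arrays, beside 30.6% of all genes. Its partner in that complex, the Hsp70-like SSZ1, had a mean of -0.16 ± 0.18 and was positive on array 1 only. SSB2, an Hsp70 that binds nascent chains, stayed between -0.17 and 0.08. Its near-identical copy SSB1 had values on arrays 2 and 4 only, -0.55 and -0.24, which share a dye orientation. The general J protein gene YDJ1 had a mean of -0.16 ± 0.30. SIS1, an essential J protein that also takes part in prion maintenance, read 0.51, -0.54, 0.18 and -0.60 on arrays 1 to 4, again with arrays 1 and 3 above the others. The J protein gene APJ1 was blank.

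HSP26 (YBR072W), which encodes a small heat shock protein, had the largest mean of the list. Its ratios were 0.53, 0.80, 0.28 and 0.56 on arrays 1 to 4, positive on every array and at or above 83.4% of all genes on each of them. The mean was 0.54 ± 0.21 (log2, SD, n = 4), a 1.46-fold difference with a 95% interval from 0.25 to 0.84 on the log2 scale (limma, adjusted p = 0.163). The adjusted p ran from 0.0432 to 0.418 over the alternatives, and HSP26 passed when arrays 1 and 4 were taken as 1 culture and arrays 2 and 3 as the other, and when the 4 arrays were fitted with a dye term (limma, adjusted p = 0.0432 and 0.0467). In those fits 148 and 109 of all 2925 genes passed, beside this 1 of the 25 chaperone genes. For scale, HSP12, another stress-induced small protein gene, had ratios from 3.14 to 4.73. Positive ratios on all 4 arrays were found for 2 of the 25 chaperone genes, HSP26 and HSP60, beside 6.87% of all genes. With array 2 left out, 4 were positive on the remaining arrays, beside 8.65% of all genes.

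The other genes of protein disaggregation and sorting were sparsely measured. HSP104, the disaggregase, read -1.09 on array 3 and 0.03 on array 4. The small heat shock protein gene HSP42 had a single value, -0.48 on array 2. BTN2 and CUR1, paralogues that direct misfolded proteins to deposit sites, had values on arrays 2 and 4 only, -0.54 and -0.52 for BTN2 and -0.54 and -0.90 for CUR1. Since these arrays carry caspofungin RNA in the same dye, the dye and the treatment cannot be told apart for those genes, and no test was made.

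The mitochondrial chaperones were measured on all arrays, with means from -0.04 to 0.24. HSP60, the chaperonin of the matrix (YLR259C), read 0.29, 0.20, 0.11 and 0.37 on arrays 1 to 4, a mean of 0.24 ± 0.12 (log2, SD, n = 4; limma, adjusted p = 0.215) with a 95% interval from -0.02 to 0.50. Its co-chaperonin HSP10 (YOR020C) did not share that sign, with -0.18, 0.26, -0.31 and 0.16 on arrays 1 to 4 and a mean of -0.02 ± 0.27. SSC1, the matrix Hsp70 that also drives protein import, had a mean of 0.01 ± 0.25, its J protein MDJ1 0.03 ± 0.20 and the matrix disaggregase HSP78 0.01 ± 0.33. In each of these 3 genes array 1 was the highest and array 2 the lowest. MGE1 (YOR232W), the exchange factor of SSC1, read 0.64, -0.95, 0.73 and -0.60, the widest range of the mitochondrial genes, with a mean of -0.04 ± 0.86.

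**Figure D2:**
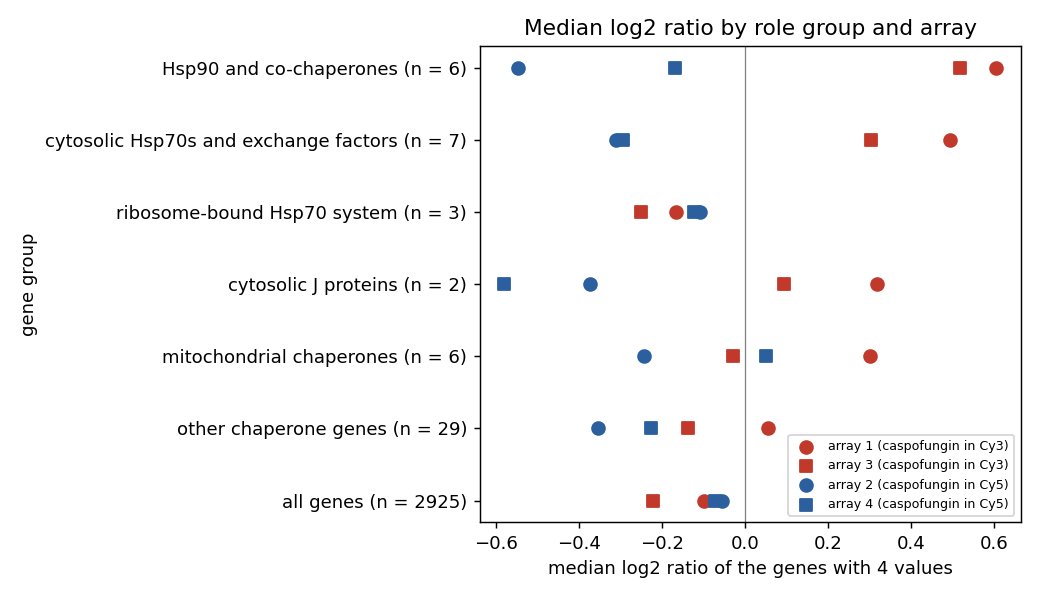
Median log2 ratio on each array (horizontal axis) for the role groups with at least 2 measured genes, the other chaperone genes and all genes. The Hsp90 medians were 0.60 and 0.52 on the Cy3 arrays (red), and -0.55 and -0.17 on the Cy5 arrays (blue), while the medians of all genes lay between -0.22 and -0.06.

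The Hsp90 group had medians of 0.60 and 0.52 on the Cy3 arrays, and of -0.55 and -0.17 on the Cy5 arrays. Cytosolic Hsp70s and exchange factors had medians of 0.49 and 0.30 against -0.31 and -0.29. The mitochondrial group, with 0.30 and -0.03 against -0.24 and 0.05, overlapped between orientations. Over all genes both Cy3 arrays lay slightly below the Cy5 arrays, at -0.10 and -0.22 against -0.06 and -0.07. The 3 ribosome-bound genes had medians from -0.25 to -0.11 on the 4 arrays. Differences between role groups were not tested.

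To measure the split, the dye part of a gene was taken as the mean of arrays 1 and 3 less the mean of all 4 arrays. It was positive for 20 of the 25 chaperone genes, beside 44.1% of all genes, with a median of 0.21 against -0.05 over all genes. All 6 genes of the Hsp90 group with 4 values and all 7 cytosolic Hsp70 and exchange factor genes had a positive dye part. The largest belonged to HSP82 with 0.75 (95% interval 0.49 to 1.01), MGE1 with 0.73 and SSA3 with 0.66, followed by HSC82 with 0.61 and STI1 with 0.56. The lowest was that of HSP10, -0.23. None passed the test across all genes (0 chaperone genes and 0% of all genes, limma, lowest adjusted p = 0.0763). At an unadjusted p under 0.05 there were 9 chaperone genes, all positive, beside 11.8% of all genes with a positive and 20.5% with a negative dye part. The count of 0 did not hold under several alternatives. It was 5 with arrays centred, beside 8.1% of all genes, 7 with arrays scaled, beside 13.9%, and 8 with 4 arrays and a dye term, beside 20.9%. With arrays 1 and 2 taken as 1 culture and 3 and 4 as the other it was 8 of 25 chaperone genes beside 16.6% of all genes, without array 1 it was 9 beside 43.6%, and without array 3 it was 11 beside 39.9%.

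Ratios of arrays 1 and 3 both above those of arrays 2 and 4 were found in 15 chaperone genes, beside 27.8% of all genes, and both below in 4, beside 41%. The 4 were HSP26, HSP10, SSB2 and ZUO1. Positive ratios on both Cy3 arrays with negative ratios on both Cy5 arrays were found in 11 chaperone genes, beside 13.4% of all genes, and the opposite signs in SSB2 and HSP10, beside 19.7%. The dye part exceeded the mean in size in 19 of the 25 genes, against 53.7% of all genes.

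**Figure D3:**
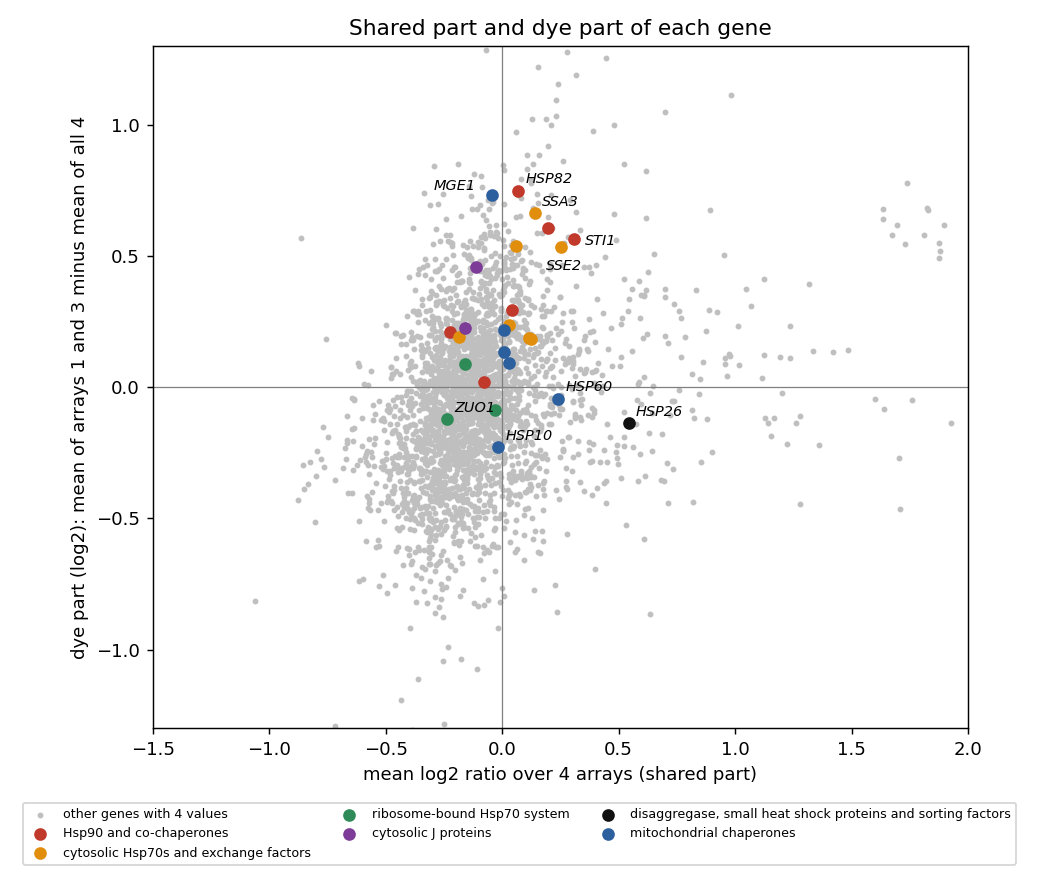
Mean log2 ratio over 4 arrays (horizontal axis) against the dye part in log2 (vertical axis) for genes with 4 values. Chaperone genes are coloured by role and all other genes are grey, with 9 of them outside the window. HSP82, MGE1 and SSA3 have dye parts of 0.66 to 0.75 with means of at most 0.14, and HSP26 has the mean of 0.54 with a dye part of -0.14.

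Divided into parts, the squared log2 ratios of the 25 chaperone genes were 17.0% shared by the 4 arrays, 72.9% followed dye orientation and 10.1% were left over. Over all genes the shares were 43.2%, 41.4% and 15.5%. The Hsp90 group and the cytosolic Hsp70 group had dye shares of 80.4% and 78.7%, and the ribosome-bound genes 22.7%, with 62.6% shared. The mitochondrial group came to 79.1%, of which MGE1 alone made up 80.7%. For HSP26, 89.7% of the squared ratios were shared. Across the 25 genes, arrays of the same orientation correlated at Pearson's r = 0.82 for arrays 1 and 3 and 0.72 for arrays 2 and 4, against 0.655 and 0.794 over all 2925 genes. Between a Cy3 and a Cy5 array r was -0.49 to -0.21, against -0.15 to 0.14 over all genes. Spearman's rho between such arrays was -0.64 to -0.20, against -0.33 to -0.12 over all genes. These correlations are across genes of the same 4 arrays, which are not independent.

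**Figure D4:**
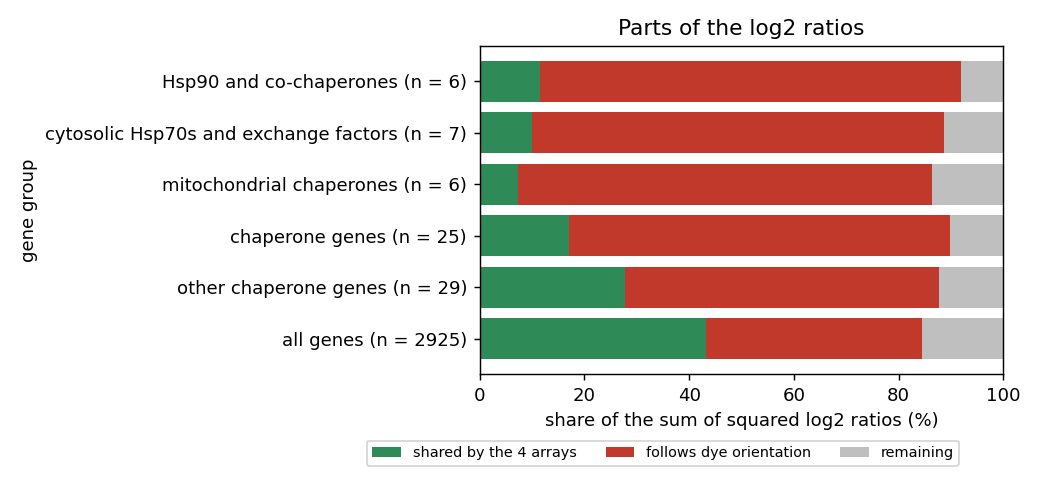
Share of the sum of squared log2 ratios (horizontal axis, percent) that the 4 arrays share (green), that follows dye orientation (red) and that remains (grey), for role groups, all 25 chaperone genes, 29 other chaperone genes and all 2925 genes. The red share is 72.9% for the chaperone genes and 41.4% for all genes.

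A second list took in chaperones outside these families: the cytosolic chaperonin CCT, prefoldin, which hands unfolded actin and tubulin to it, further J proteins, mitochondrial chaperones and Hsp90 co-chaperones, the nascent polypeptide-associated complex and single heat shock genes. The table has 41 of its genes, 29 of them with 4 values, and the gene of the heat shock factor Hsf1 itself was not among them. None passed (0 genes, limma, lowest adjusted p = 0.163), and 6 had an unadjusted p under 0.05, 1 positive and 5 negative, beside the 6.84% and 18.5% of all genes. Means were positive for 3 of the 29, beside 27% of all genes, with a median of -0.14 against -0.13 over all genes. The 8 CCT genes had a median of -0.13 and the 6 prefoldin genes -0.22. HSP31, a stress-induced glyoxalase and chaperone of the DJ-1 family, had the highest mean, 0.53 ± 0.61, with 0.08, 1.10, -0.07 and 1.01 on arrays 1 to 4. It was thus high on the Cy5 arrays and near 0 on the others. Next among the 29 genes with 4 values came CAJ1, a J protein gene, with 0.07 ± 0.65. The lowest means of the 29 were those of PPT1, a phosphatase bound to Hsp90, with -0.52 ± 0.34, and of the prefoldin gene GIM5, with -0.48 ± 0.24. Each was negative on all 4 arrays (log2, SD, n = 4). The dye part was positive for 17 of the 29, beside 44.1% of all genes, with a median of 0.06 against -0.05.

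If the deposited ratios are Cy5 over Cy3 and were never turned, the dye part with its sign changed becomes the caspofungin difference. Read so, the chaperone median was -0.21 against 0.05 over all genes, and no chaperone gene passed (0 genes, limma, lowest adjusted p = 0.0763). At an unadjusted p under 0.05 (limma) there were 9 chaperone genes, all with lower values in caspofungin. Over all genes 11.8% were lower and 20.5% higher in caspofungin at that level. HSP26 then had a mean of 0.14 (limma, adjusted p = 0.403), and HSP12 did not pass, as 0 genes of the table did. The deposited HSP12 ratios, 3.14 to 4.73 with 1 sign under both dye orientations, would then be a difference between dyes. Which reading holds was not tested. The 95% intervals of the dye part reached past 1 for HSP82 (0.490 to 1.008) and MGE1 (0.447 to 1.014). Under this reading the intervals of these 2 genes were thus not within a 2-fold difference. Ratios deposited as Cy3 over Cy5 would give the same sizes with every sign turned. The dye orientation and the caspofungin difference cannot be told apart for these genes unless the direction of the ratios is known.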

How the data were processed

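The authors deposited 1 log2 ratio per gene and array for 4 two-colour arrays. Base 2 was inferred, since it gave antilogs with 4 decimals for 100% of the values. Scanner intensities were not used. The genome build, software, background correction, normalization and rule for blank cells are not given in the sources at hand. Scale, centring and direction of the ratios stay unknown. Names came from RefSeq's gene table (assembly R64), which matched 34 of 34 chaperone genes. No sequences or coordinates were used.

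Genes with 4 values had the means of their 2 cultures tested against 0 (limma 3.58.1, R 4.3.3). Since the arrays of a culture are not named in the labels, both pairings of opposite dye orientation were fitted, each gene's larger p was adjusted over all 2925 genes by Benjamini-Hochberg, and the wider 95% interval was taken. The threshold was an adjusted p of 0.05. The dye part was tested likewise. The procedure was tested on simulated data in which the changes were at least 2-fold, and smaller changes were not simulated. An exact sign test over 2 cultures cannot give a p below 0.5. The number of arrays limits the precision, and SDs are over arrays that share cultures. All members were described, and of the genes of the second list with 4 values the 2 highest and 2 lowest means were named. The members, lists and tests were chosen with earlier results of these data known. Alternatives were the centring, scaling, pairing, direction, a dye term, genes on at least 3 arrays, and each array left out. Leaving out an array leaves the dyes unbalanced, and the dye part was then tested with a dye term on 3 arrays.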

Additional observations from a re-analysis of the deposited data

Results flagged for a closer look

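FES1, the gene of a cytosolic nucleotide exchange factor of Hsp70, had 1 array far from the others. Its log2 ratio was 0.301 on array 1, against -0.29 to -0.39 on arrays 2 to 4, and that gap was 0.86 of the whole range, above Dixon's 95% critical value for 4 samples. It was the 1 gene so found among the 25 chaperone genes tested. With 4 independent arrays chance alone would give about 1 in 20. These arrays share cultures and dye orientations, so that rate need not hold here. The share over all genes was not computed.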

How the results depend on the processing

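The count of chaperone genes that passed, 0, became 1 (HSP26) with arrays 1 and 4 taken as 1 culture and with 4 arrays and a dye term, and stayed at 0 under the other alternatives, each array left out included. Over all genes the count of 1 became 10 with arrays centred, 11 with arrays scaled, 0 with genes on at least 3 arrays, 148 with arrays 1 and 4 as 1 culture, 109 with a dye term and 0 when turned by the dye labels. It ran from 1 to 61 with an array left out. The dye part, with 0 chaperone genes past the test, gave 5 with arrays centred (beside 8.1% of all genes), 7 with arrays scaled (beside 13.9%), 8 with arrays 1 and 2 as 1 culture (beside 16.6%), and 0 to 11 with an array left out (beside 0% to 43.6%). With 4 arrays and a dye term, added after seeing the data for the dye part, it was 8 (beside 20.9%). Why these counts differ was not tested. The median of the chaperone genes, and that of their dye part, moved by less than the spread between replicates under every alternative run. For the first median that spread was the SD of its 4 array medians, 0.268, which holds the split between dye orientations. Staying within it does not show a stable sign. The median was 0.03 in the main fit, -0.21 when turned by the dye labels and -0.09 to 0.14 under the other alternatives. The scaling brought all arrays to 1 spread without centring. In counts added after seeing the data, 3 chaperone genes with 1 sign on all arrays (beside 26.2% of all genes) became 3 to 7 with an array left out (beside 32.3% to 39.9%), which cannot lower that count, and 3 with arrays centred or scaled (beside 19.7% and 26.2%). The 15 positive means became 7 to 17 with an array left out (beside 26.1% to 31.6%) and 19 with arrays centred (beside 46.2%). They became 11 with arrays scaled (beside 26.8%) and 5 when turned by the dye labels (beside 55.9%). Genes whose orientations do not overlap numbered 19 (beside 68.8% of all genes), 23 and 20 with arrays centred and scaled (beside 69.6% and 68.7%), and 20 to 24 with an array left out (beside 79.2% to 89.3%). Leaving out an array cannot lower that count either. Of the means of single genes and the medians of role groups under all alternatives, 328 moved by less than 1 SD and 13 by more. These counts do not measure stability. The pairings, the dye term and the genes on at least 3 arrays leave these means as they were. Leaving out 1 of 4 arrays cannot move a gene's mean by 1 SD over its arrays. That SD also holds the dye split, so HSP82, at 0.0705 and at -0.749 when turned by the dye labels, counts among the 328. Depth is unknown for ratios, so no limit of detection could be set.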
